A study of Homo sapiens with 7 samples.

Results

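The comparison set 2 arrays of human dermal fibroblasts that overexpressed a form of lamin A and were grown with a farnesyltransferase inhibitor (FTI) against 2 control arrays, to show which transcripts differed from control while farnesylation was inhibited. These 4 arrays, of 7 in the series, were taken by their labels. The FTI arrays were 1 of fibroblasts overexpressing prelamin A and 1 of fibroblasts overexpressing progerin, both treated with FTI, and the controls were fibroblasts with no transgene named in their labels (control 1 and control 2). Arrays of untreated prelamin A cells, untreated progerin cells and cells labelled prelamin A and ZMPSTE24, 1 each, gave the values set beside them. All RNA was taken at passage 10 from isogenic lines of 1 primary strain in the labels, the inhibitor was L-744832 at 10 nM, and the series gives its time as 48 h. For prelamin A and FTI the sample title gives FTI only, but the source and treatment labels give the transgene as well and were followed.

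Farnesyltransferase attaches a farnesyl lipid to the cysteine near the end of proteins that finish in a CAAX motif, among them prelamin A, the B-type lamins and RAS proteins. Prelamin A is farnesylated and is then cut by the protease ZMPSTE24, which releases mature lamin A, whereas progerin, the truncated lamin A of Hutchinson-Gilford progeria, lacks the cutting site and keeps its farnesyl group. An FTI keeps the lipid off both proteins. No array held control cells with FTI, so what FTI does to fibroblasts without a transgene and what the transgene does under FTI cannot be told apart here. The labels do not say whether the controls carried an empty virus or received the solvent.

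Each array gave 1 MAS 5.0 signal per probe set, a background-corrected brightness scaled to a common trimmed mean, and the median signal lay between 64.6 and 76.8. The 2 arrays in each group limit the precision of every value, and nothing in the labels says that the controls came from separate cultures. The spread behind the p-values of FTI against control is that between the control arrays, possibly technical, and that between the FTI arrays. The FTI arrays are of different lines, so the line difference is part of this spread. Control 1 and control 2 were over 2-fold apart in 1181 of 12726 genes tested, and the FTI arrays in 1127. Of the fibroblast markers, 18 of 18 reached a signal of 100 and 0 were called, with a summed signal of 380716 and 419973 on the FTI arrays, against 464361 and 445820 on the controls. Keratinocyte and epithelial markers, of which 4 of 14 reached a signal of 100 and 0 were called, summed to 7826 and 7329.6 on the FTI arrays against 14353 and 9798 on the controls, with a median log2 difference of -0.50. Adipocyte markers (2 of 6, 0 called) summed to 819.9 and 1788 against 1349 and 331, and melanocyte markers (1 of 7, 0 called) to 434 and 270.5 against 290.3 and 253. No muscle marker of 8 reached a signal of 100. Of the leukocyte markers 4 of 13 reached it and 1, CD14, was called higher, with a median log2 difference of 0.056. Their summed signal was 729 and 658 on the FTI arrays against 580 and 453 on the controls. CD14 alone gave 311 and 198 against 87.2 and 55.3. Of the endothelial markers 2 of 9 reached it and 1, TEK, was called higher, with sums of 467 and 594 against 366 and 246. TEK alone gave 186 and 344 against 23.5 and 2.19. The higher sums of these sets thus rested largely on 1 gene each. In bulk RNA, fewer cells of a type and less RNA per cell cannot be told apart. The lamin A gene itself did not set the transgenic arrays apart. LMNA read 9814 and 15239.6 on the FTI arrays, 8498 and 16289 on the untreated prelamin A and progerin arrays and 9300.3 and 14029 on the controls (log2 difference of FTI from control 0.10, SE 0.35). Where the LMNA probes lie relative to the transgenes was not looked up, so this does not check the labels. ZMPSTE24 read 5180.1 and 5195 on the FTI arrays, 6119.5 and 5073 on the untreated prelamin A and progerin arrays, 5779 on the array labelled prelamin A and ZMPSTE24 and 4841 and 4973 on the controls. The array labelled as overexpressing ZMPSTE24 was thus below the untreated prelamin A array, and this gene's signal did not bear out its label. Where the ZMPSTE24 probe set lies relative to the transgene was not looked up either.

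The calls between the FTI arrays and the controls included collagens, secreted WNT pathway genes, p53 targets and genes best known from neurons. A gene is named as called throughout where its fold exceeded 2 with an unadjusted p under 0.05 by limma on log2(signal + 16). By this criterion 467 genes (3.67% of those tested) were higher and 296 (2.33%) were lower on the FTI arrays than on the controls. These shares are the background for every list count of this comparison. The lists were chosen with earlier results of these data known, so a share above background is a description and not a test. Calls over all genes also changed with 1 array left out, so a list count from such a fit is not by itself a result about the list. At a Benjamini-Hochberg adjusted p under 0.05 limma called 0 genes, with 1285 genes (10.1%) at an unadjusted p under 0.05, and the smallest adjusted p was 0.0666, shared by 13 genes. Both FTI arrays lay over 2-fold above both controls in 237 genes (1.86%) and over 2-fold below both in 98 genes (0.770%). When FTI, untreated lamin, the array labelled prelamin A and ZMPSTE24 and control were fitted as 4 states on the 7 arrays, 16 genes passed an adjusted p under 0.05, among them INA, ENPP5, MAOA, B4GALT6, SMOC2 and RAC2, which were higher, and HAPLN1, COL11A1, OMD and BCAT1, which were lower.

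Among the largest rises, SELENOP, the selenium carrier of plasma, read 4345 and 2418 on the FTI arrays, 5056 and 2265 on the untreated lamin arrays and 201 and 10.0 on the controls (log2 difference from control 5.44, SE 1.04). Both FTI arrays were far above both controls, which were themselves far apart. SLC7A14, a member of the cationic amino acid transporter family, read 1099 and 1221 on the FTI arrays and 4.41 and 15.3 on the controls (5.54, SE 0.29, adjusted p = 0.0666), the smallest p of the comparison. MAOA, which oxidises monoamines at mitochondria, read 827 and 509 with FTI, 621 and 512 on the untreated lamin arrays and 18.1 and 18.4 on the controls, so that the controls were almost equal and every array with a transgene was far brighter. B4GALT6, a galactosyltransferase of glycolipid synthesis, read 775 and 529 with FTI and 19.7 and 5.39 on the controls. CD36, a scavenger receptor and fatty acid transporter, read 1764 and 664 against 64.3 and 28.7, and ENPP5, an ectonucleotide pyrophosphatase family member, 610.5 and 542 against 33.7 and 22.7. The untreated prelamin A and progerin arrays read 489 and 1636 for SLC7A14, 722 and 519 for B4GALT6, 2645 and 776 for CD36 and 631 and 583 for ENPP5, all of them above both controls.

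The largest falls included HAPLN1, PTGS2, CH25H, SCRG1 and the homeobox gene LHX9. HAPLN1, the link protein that ties hyaluronan to proteoglycans, read 20.5 and 46.6 on the FTI arrays, 23.0 and 32.8 on the untreated lamin arrays and 1092 and 1324 on the controls (log2 difference from control -4.67, SE 0.34, adjusted p = 0.0666). PTGS2, the inducible cyclooxygenase of prostaglandin synthesis, read 398 and 561 with FTI, 1940.1 and 645 without it and 6043 and 8181 on the controls (-3.85, SE 0.30). The untreated prelamin A array lay between the FTI arrays and the controls for this gene. CH25H, a hydroxylase that makes an oxysterol, read 132.8 and 217 on the FTI arrays and 1277 and 3875 on the controls, and SCRG1, a secreted protein found in cartilage, 106 and 158 and 1432 and 2989. The homeobox factors LHX9 and IRX3 were also lower, LHX9 at 779 and 1932 with FTI against 12235 and 9943, and IRX3 at 1727 and 1311 against 6739.7 and 13447. All 4 of these genes had both FTI arrays more than 2-fold below both controls.

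**Figure D1:**
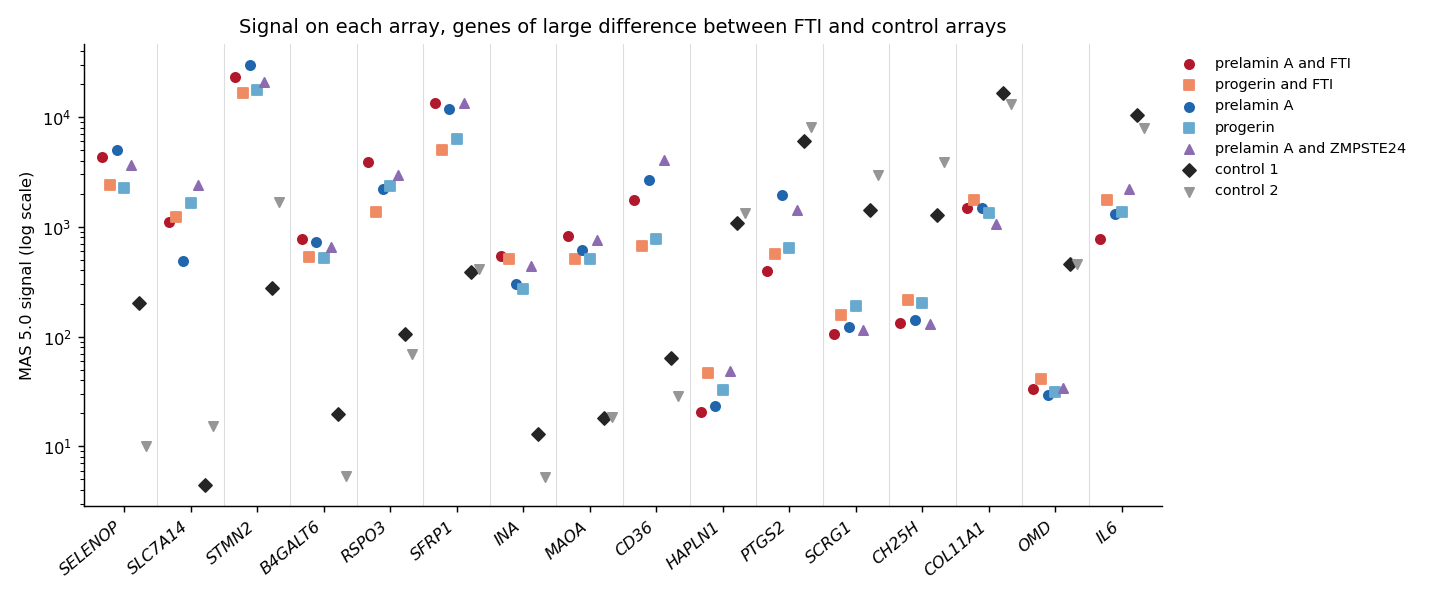
MAS 5.0 signal (log axis) of 16 genes on each of the 7 arrays, 1 point per array and no averaging, with the FTI arrays in red and orange, untreated lamin arrays in blue, the array labelled prelamin A and ZMPSTE24 in purple and controls in black and grey. For the first 9 genes every transgenic array lies above both controls, for the other 7 every transgenic array lies below them, and the SELENOP and STMN2 controls are further apart than the FTI arrays of those genes.

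Collagen chains had 7 of 27 measured members lower (25.9%, against 2.33% of all genes tested) and 1 higher, with a median log2 difference of -0.62. COL11A1, a chain of a minor fibrillar collagen that nucleates fibrils, read 1478 and 1749 on the FTI arrays, 1469 and 1338 on the untreated lamin arrays and 16514 and 13105 on the controls (log2 difference -3.18, SE 0.25, adjusted p = 0.0666). The basement membrane chains COL4A1 and COL4A2, which lie head to head on chromosome 13, were both lower: COL4A1 read 341 and 645 with FTI against 3724 and 3459 on the controls, and COL4A2 1279 and 1597 against 4297 and 4453. COL15A1, also of basement membrane zones, read 523 and 3034 against 5737 and 7661, with the prelamin A and FTI array far below the other. COL5A1 and COL5A2, which set fibril diameter, read 4851 and 8329.9 and 4106 and 9975 with FTI against 13642 and 17967 and 18737 and 21452 on the controls. COL13A1, a transmembrane collagen, was the 1 chain that rose, with 3407 and 3278 on the FTI arrays against 695 and 923 on the controls (2.04, SE 0.25), its 3 probe sets ranging from 0.46 to 2.04. Without control 2 the count lower was 4, and COL5A1 (-1.10), COL5A2 (-1.55) and COL15A1 (-2.17) lost their call. COL15A1 also lost it without control 1 (-2.58), and COL5A1 without the prelamin A and FTI array (-0.91).

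Of the genes that process and cross-link collagen, 6 of 21 fell (28.6%) and 0 rose, with a median of -0.75. ADAMTS2, the protease that removes the amino propeptide of procollagen, read 961 and 1564 on the FTI arrays, 1439.5 and 1659 on the untreated lamin arrays and 3608 and 3588 on the controls (log2 difference -1.54, SE 0.31), although another of its 3 probe sets, a dimmer one, differed by 0.26. P3H1, a prolyl 3-hydroxylase of collagen, read 1014 and 1751 against 3535 and 3985. The collagen chaperone SERPINH1 read 3714 and 7310.3 with FTI and 12642 and 20662 on the controls, BMP1, which removes the carboxyl propeptide, 323 and 534 and 846 and 1285, and its enhancer PCOLCE 3729.8 and 6551 and 10823 and 15246. The 4 probe sets of BMP1 ranged from -1.29 to -0.14. In each of these 3 genes the prelamin A and FTI array was the lower of the FTI pair. Without that array, and also without control 2, the count was 3 and these genes lost their call, at -1.14 and -1.28 for SERPINH1, -0.95 and -1.0 for BMP1 and -0.97 and -1.13 for PCOLCE. Without progerin and FTI the count was 10.

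Small leucine-rich proteoglycans moved both ways. In the list of proteoglycans and hyaluronan genes 5 of 32 fell (15.6%) and 1 rose, and the median was -0.09. OMD, OGN and ASPN, neighbours on chromosome 9, were all lower. OMD read 33.0 and 41.3 on the FTI arrays, 29.2 and 31.2 on the untreated lamin arrays and 459 and 458 on the controls (-3.16, SE 0.22, adjusted p = 0.0666). OGN read 2.91 and 7.16, 12.9 and 45.1 and 89.4 and 108 in the same order and ASPN 239 and 486, 714 and 398 and 1966 and 1862, so that OGN was lowest with FTI. FMOD, fibromodulin, was the one that rose, with 4492 and 4244 with FTI against 1582 and 988 on the controls (1.79, SE 0.30). Without prelamin A and FTI the count lower was 8, and the count higher was 2 or 3 without any 1 of the 4 arrays.

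Elastic fibre genes had 6 of 18 lower (33.3%, against 2.33% of all genes tested) and 1 higher, with a median of -0.16. FBN2, a fibrillin, read 2773 and 2265 on the FTI arrays and 7556 and 6295 on the controls. EFEMP1, a fibulin-like matrix protein, read 116 and 1309 against 5882 and 3705 and lost its call without control 1 (-3.15). FBLN2, another fibulin, rose, with 2077 and 2293 on the FTI arrays, 3137 and 2683 on the untreated lamin arrays and 437 and 543 on the controls (2.13, SE 0.24). Without prelamin A and FTI the count lower was 2 and the count higher 2.

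Matricellular and adhesive glycoproteins had 5 of 28 in each direction (17.9%), with 3 higher without control 1. TNC, tenascin, POSTN, periostin, and MXRA5 were lower. TNC read 2337 and 4311 on the FTI arrays, 6579 and 5965 on the untreated lamin arrays and 9116 and 15536 on the controls (-1.90, SE 0.43), POSTN 2783 and 1747 on the FTI arrays against 10121 and 23772 and MXRA5 3024 and 1754 against 16268 and 13002. COMP, cartilage oligomeric matrix protein, read 686 and 599 with FTI, 1979 and 579 without it, 84.4 on the array labelled prelamin A and ZMPSTE24 and 83.0 and 41.0 on the controls (3.13, SE 0.34), so that the array with the ZMPSTE24 label alone among the transgenic arrays lay near control. SMOC2, a calcium-binding matricellular protein, read 367 and 343 against 27.2 and 17.6, and CCN3 7540.4 and 1718 against 607 and 183. TIMP3, a tissue inhibitor of metalloproteinases that binds to the matrix, rose to 17681 and 14889.9 with FTI, against 5145 and 7281 on the controls. The metalloproteinase list had 2 of 24 higher (8.33%, against 3.67% of all genes tested) and 4 lower (16.7%, against 2.33%). Some of these calls were lost without prelamin A and FTI or without control 2. The list of integrins and laminins had 2 of 27 each way (7.41%). It also holds the scavenger receptor CD36, which is neither and was 1 of the 2 that rose. Some of these calls were lost without prelamin A and FTI or without control 2.

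**Figure D2:**
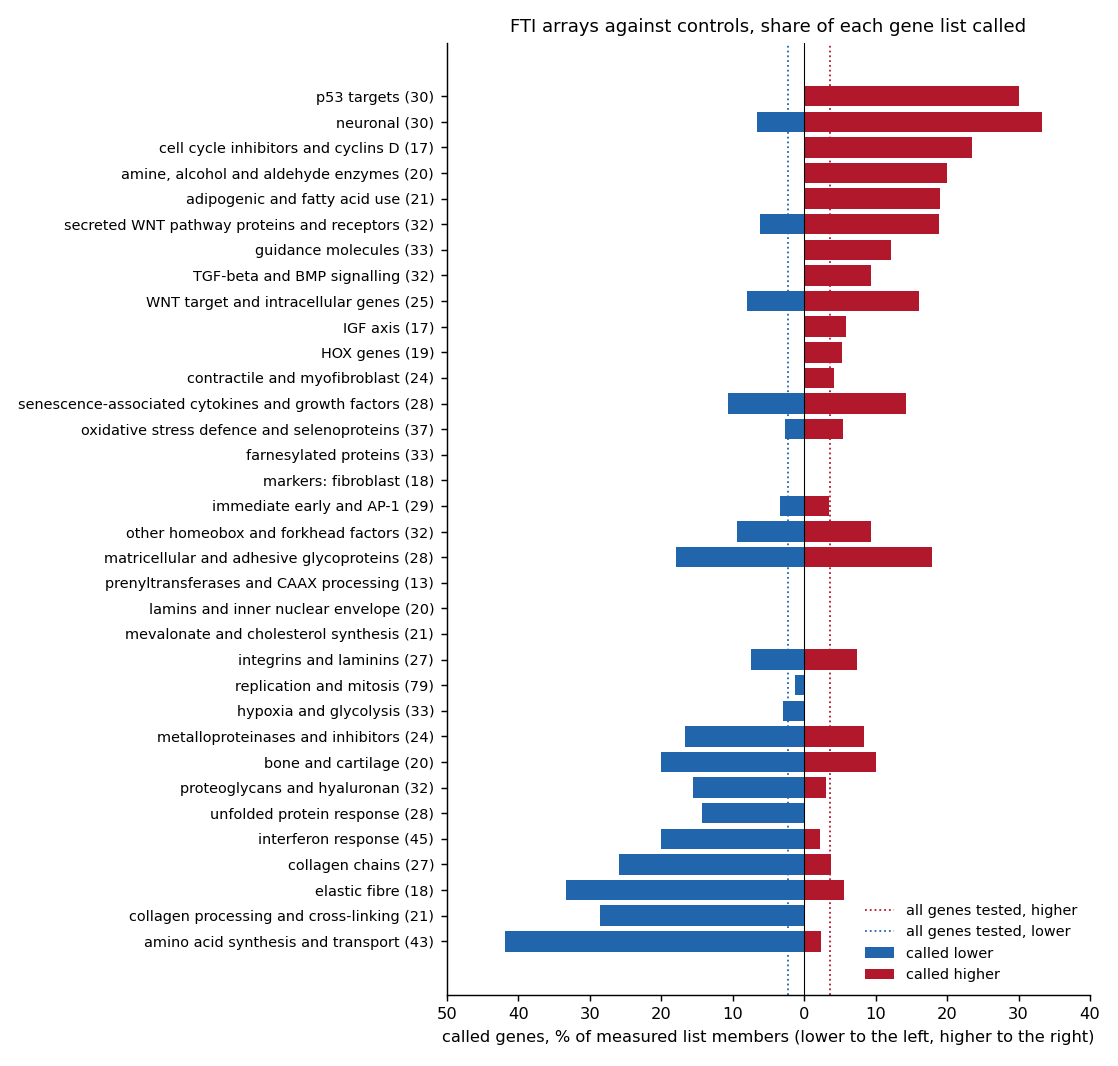
Share of the measured members of each gene list called higher (red, to the right) or lower (blue, to the left) on the FTI arrays than on the controls, in percent, with the number measured in brackets and dotted lines at the shares of all 12726 genes tested. Lists with 10 or more measured members are shown, the neuronal and p53 lists reach 33.3% and 30.0% higher, and the amino acid list reaches 41.9% lower. The lists were chosen with earlier results of these data known, the amino acid list after its values were seen, so the bars are descriptive. In the amino acid list the controls were over 2-fold apart in 22 of 43 genes.

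SFRP1, SFRP2, SFRP4 and RSPO3 rose on the FTI arrays. Of the secreted WNT pathway proteins and receptors, 6 of 32 rose (18.8%, against 3.67% of all genes tested) and 2 fell, with a median log2 difference of 0.37. The secreted frizzled-related proteins bind WNT ligands outside the cell. SFRP1 read 13552 and 5038 on the FTI arrays, 11955 and 6285 on the untreated lamin arrays and 386 and 410.3 on the controls (4.32, SE 0.51). SFRP2 read 3396 and 2724, 9652 and 3455 and 277 and 305 in the same order (3.32, SE 0.24, adjusted p = 0.0666), and SFRP4 846 and 921, 3091 and 1076 and 184 and 289.7. For both SFRP2 and SFRP4 the untreated prelamin A array was the brightest of the 7. RSPO3, an R-spondin that raises WNT signalling through LGR receptors, read 3908 and 1378 with FTI against 105 and 69.8 on the controls (4.52, SE 0.55), and the receptor LGR5 136 and 49.8 against 6.32 and 7.74. DKK2, another secreted WNT inhibitor, was not called (2.13, SE 0.94). The sixth gene to rise was the receptor kinase ROR1, with 1181 and 1107 against 567 and 542 (1.02) and 3 probe sets between 0.39 and 1.02, which lost its call without prelamin A and FTI (0.98) or without control 2 (0.99). The ligands WNT5A and WNT2B were lower, WNT5A with 3169.5 and 6794 on the FTI arrays against 9764 and 12554 on the controls and WNT2B with 104 and 82.5 against 315 and 183. WNT5A lost its call without prelamin A and FTI (-0.70), control 1 (-1.43) or control 2 (-1.07), and WNT2B without progerin and FTI (-1.09) or control 1 (-0.87). Without control 1 the count higher was 10. In the list of WNT targets and intracellular genes 4 of 25 rose (16%) and 2 fell (8%), with fewer lower without prelamin A and FTI. The rises included CCND1.

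Of the TGF-beta and BMP genes 3 of 32 rose (9.38%) and 0 fell. They were the decoy receptor BAMBI, with 1519.7 and 1092 on the FTI arrays against 445 and 326 on the controls, the BMP-family ligand GDF5, with 390.3 and 855 against 125 and 109, and the BMP antagonist NOG, with 1856 and 181 against 63.4 and 57.4. NOG was brighter on the prelamin A and FTI array than on the progerin and FTI array by 3.25 on the log2 scale, and it lost its call without control 1 (3.05) or control 2 (2.93). Without progerin and FTI the count higher was 9, and 3 were lower without prelamin A and FTI or without control 1.

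Of 30 measured p53 targets 9 rose (30.0%, against 3.67% of all genes tested) and 0 fell. The median of the list was 0.69, against a median of -0.02 over all genes tested. CDKN1A, the p21 inhibitor of cyclin-dependent kinases, read 11819.9 and 11553 on the FTI arrays, 10495 and 10102 on the untreated lamin arrays and 3789 and 5658 on the controls (1.33, SE 0.28, adjusted p = 0.258). MDM2, the ubiquitin ligase of p53, read 1769 and 1623 with FTI against 514 and 744 on the controls, and its 8 probe sets ranged from 0.36 to 1.90. RRM2B, the p53-induced subunit of ribonucleotide reductase, read 2704 and 2069.9 against 909 and 766. The decoy receptors of TRAIL rose as well. TNFRSF10D read 5435 and 4385 with FTI, 3019.5 and 2283 on the untreated lamin arrays and 1360.2 and 1296 on the controls, and TNFRSF10C 302 and 299.6, 209.6 and 272 and 51.6 and 63.5, although the 3 probe sets of TNFRSF10C ranged from 0.21 to 2.11. TNFRSF10D had higher signals with FTI than without it in both lines, by 0.89 on the log2 scale (SE 0.16), short of the 2-fold threshold. SPATA18, a p53 target of mitochondrial quality control, read 2279 and 1874 against 697 and 690.3. TIGAR lost its call without prelamin A and FTI (0.85) or control 2 (0.99), as did ZMAT3 (0.74 and 0.94), whose 5 probe sets ranged from 0.90 to 1.63, and CYFIP2 lost it without progerin and FTI (1.19) or control 2 (0.79). The list had between 7 and 10 members higher when each array was left out in turn, and 1 lower without control 1.

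**Figure D3:**
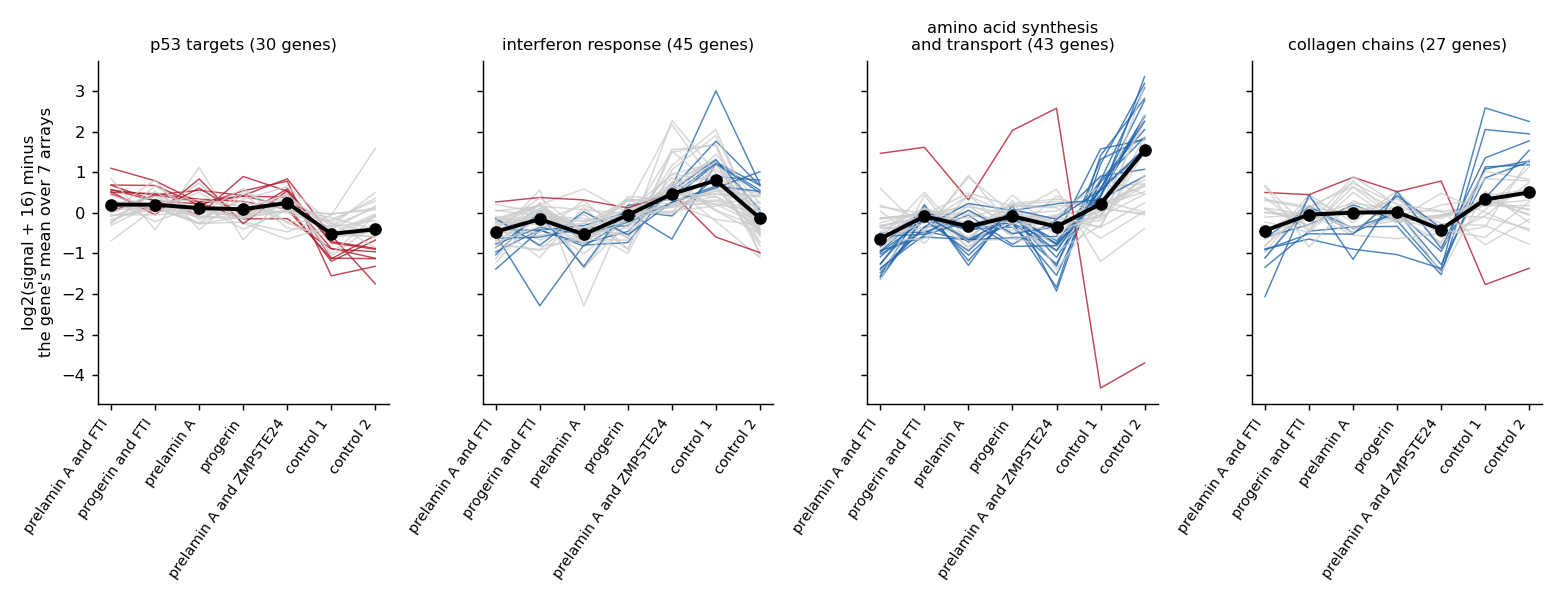
Each thin line joins 1 gene's values over the 7 arrays, as log2(signal + 16) minus the gene's own mean (vertical axis), in red where it was called higher with FTI than control, in blue where lower and in grey otherwise, and black points join the medians of the list. The p53 medians are 0.20 on both FTI arrays and -0.52 and -0.41 on the controls, the interferon median is 0.80 on control 1 and -0.13 on control 2, and the amino acid median is 0.22 on control 1 and 1.54 on control 2.

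Of 17 cell cycle inhibitors and D cyclins 4 rose (23.5%) and 0 fell: CDKN1A, CDKN1C, CCND1 and CCND2. CDKN1C, the p57 inhibitor, read 486 and 359.9 on the FTI arrays against 86.1 and 101 on the controls, with 3 probe sets between 0.83 and 1.99, CCND1 11921 and 12075 against 3372 and 4603 and CCND2 1187 and 846 against 228 and 144 (2.37, SE 0.33), its 3 probe sets ranging from 0.21 to 2.37. Without progerin and FTI 2 genes of the list were lower, and without control 1 there was 1. Of the 79 replication and mitosis genes measured 0 were higher and 1, MYBL2, was lower, with a median of -0.07, while control 1 lay above control 2 by a median of 0.51. MYBL2, a transcription factor of cycling cells, read 76.1 and 177 with FTI against 255 and 263, and lost its call without prelamin A and FTI (-0.51), control 1 (-1.07) or control 2 (-1.02). Without progerin and FTI the median of these genes was -0.20. Relative to the mean of the 7 arrays the list's median was -0.15 and 0.21 on the FTI arrays, -0.48 and 0.37 on the untreated prelamin A and progerin arrays and 0.35 and -0.17 on the controls.

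Secreted inflammatory factors split by gene. Of 28 measured senescence-associated cytokines and growth factors 4 rose (14.3%) and 3 fell (10.7%), with 10 lower without control 1. The 3 that fell were IL6, CXCL1 and PTGS2, described above, which is an enzyme and not a secreted factor. IL6 read 771 and 1763 on the FTI arrays, 1312 and 1351 on the untreated lamin arrays and 10434 and 7979 on the controls (-2.95, SE 0.45, adjusted p = 0.168). The chemokine CXCL1 read 20.9 and 48.2, 72.6 and 101 and 81.8 and 139 in the same order, and its call against control was lost without prelamin A and FTI (-0.94) or control 2 (-1.01). CCL26, an eosinophil chemokine, read 467 and 1138 with FTI, 2529.9 on the array labelled prelamin A and ZMPSTE24 and 127 and 86.5 on the controls (2.63, SE 0.48). CSF1, the macrophage growth factor, rose to 3548 and 2280.1, against 1009 and 942 on the controls. IGFBP5, which binds insulin-like growth factors and was the 1 gene of 17 in the IGF list to rise, read 3399.7 and 7243 with FTI against 1367 and 161 on the controls, and without progerin and FTI it lost its call (2.79). That list had 3 genes higher without prelamin A and FTI or without progerin and FTI, and 2 without control 2.

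Of 45 measured interferon-stimulated genes 9 fell (20%) and 1 rose, with a median of -0.72. Relative to the mean of the 7 arrays the list's median was -0.46 and -0.15 on the FTI arrays and 0.80 and -0.13 on the controls, so that progerin and FTI lay level with control 2. The control arrays were themselves more than 2-fold apart in 20 of the 45, control 1 being higher by a median of 0.85. The promoters of IFI44L and IFITM1 are shown because these genes had the largest falls of the list, each as the 250 bases before the RefSeq start (GRCh38.p14, 5′ to 3′ on the gene's strand, IFI44L at chr1:78620198-78620447 on the plus strand and IFITM1 at chr11:313790-314039 on the plus strand). Capitals mark GAAANNGAAA, the core of the interferon-stimulated response element, searched on both strands.
IFI44L: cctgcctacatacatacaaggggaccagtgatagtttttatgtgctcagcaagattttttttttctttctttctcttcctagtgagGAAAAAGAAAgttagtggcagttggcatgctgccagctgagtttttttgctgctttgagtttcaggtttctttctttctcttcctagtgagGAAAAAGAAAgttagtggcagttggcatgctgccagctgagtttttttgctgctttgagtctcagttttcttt
IFITM1: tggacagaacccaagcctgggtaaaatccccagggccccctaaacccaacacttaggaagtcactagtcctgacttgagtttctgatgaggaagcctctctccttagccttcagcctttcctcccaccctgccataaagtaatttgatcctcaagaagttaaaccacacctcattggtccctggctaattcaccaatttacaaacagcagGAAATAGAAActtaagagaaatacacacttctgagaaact

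This core was present in at least 1 window of 24 of 36 list genes with a promoter in the table (66.7%). It was present in 6 of 8 called lower, DDX60, EPSTI1, IFI44, IFI44L, IFITM1 and ISG20. Of 35116 windows of the same length 3.02% held it, a share per window and not per gene, and a gene can have several windows. IFI44L read 41.6 and 1.17 on the FTI arrays, 32.4 and 34.4 on the untreated lamin arrays, 115 on the array labelled prelamin A and ZMPSTE24 and 655 and 121 on the controls (-3.27, SE 0.95). It lost its call without progerin and FTI (-2.39). IFITM1, which blocks virus entry, read 1234 and 2406 with FTI, 1921 and 2361 without it, 4909 on the array labelled prelamin A and ZMPSTE24 and 11091 and 5177 on the controls, the array with the ZMPSTE24 label lying close to control 2. IFI44 read 372 and 551 with FTI against 1781 and 1195 on the controls, and XAF1, a pro-apoptotic interferon target, 491 and 654 against 1299.8 and 1718, with its 3 probe sets between -1.37 and -0.32. TRIM22 was the 1 gene of the list that rose, with 10169 and 10984 against 5586 and 4282. Without control 1 there were 4 lower and 2 higher with a median of -0.22, and without control 2 there were 24 lower and 0 higher, TRIM22 losing its call (0.92). The second probe set was under 2-fold for IFI44 (-0.86) and EPSTI1 (-0.84). The calls of DDX60 (-0.94), EPSTI1 (-0.99) and ISG20 (-0.98) were lost without control 1, that of DDX60 also without prelamin A and FTI (-0.90), and that of EPSTI1 also without progerin and FTI (-0.74).

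Genes of amino acid synthesis and transport were the list with the largest share lower, 18 of 43 (41.9%) with 1 higher, SLC7A14, and a median of -1.28. The list was drawn up after the values were seen. Control 1 minus control 2 had a median of -1.01 on the log2 scale, the controls being more than 2-fold apart in 22 of the 43 genes. Many of these genes are targets of ATF4, the factor of the amino acid response. The promoters of ASNS, asparagine synthetase, and BCAT1, the cytosolic branched-chain aminotransferase, are shown because, of the genes called lower, they hold the core of its response element. RefSeq gave 2 starts for ASNS and 5 for BCAT1, and the window shown was taken because it holds the core. Each window is the 250 bases before 1 of these starts (GRCh38.p14, 5′ to 3′). The ASNS window lies at chr7:97872409-97872658 and the BCAT1 window at chr12:24949102-24949351, both on the minus strand. Capitals mark TGATGNAA, searched on both strands.
ASNS: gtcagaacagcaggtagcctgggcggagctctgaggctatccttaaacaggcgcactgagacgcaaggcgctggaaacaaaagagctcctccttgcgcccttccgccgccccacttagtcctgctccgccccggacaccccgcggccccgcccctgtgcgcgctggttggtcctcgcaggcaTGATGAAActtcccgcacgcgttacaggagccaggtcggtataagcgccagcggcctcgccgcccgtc
BCAT1: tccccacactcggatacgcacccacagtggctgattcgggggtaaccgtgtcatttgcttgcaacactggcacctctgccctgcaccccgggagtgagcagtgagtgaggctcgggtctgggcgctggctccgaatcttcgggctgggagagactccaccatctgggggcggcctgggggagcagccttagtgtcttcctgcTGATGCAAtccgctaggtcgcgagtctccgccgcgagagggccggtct

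The core stood in at least 1 window of 6 of 34 list genes with a promoter in the table (17.6%) and of 2 of 13 called lower. It stood in 3.14% of all windows. That share is per window and the counts are per gene, and a gene can have several windows, so they are not like for like. BCAT1 read 1333 and 1688 on the FTI arrays, 1610.1 and 1661 on the untreated lamin arrays and 7621 and 8959.7 on the controls (-2.45, SE 0.25, adjusted p = 0.121), with controls that were close. ASNS read 414 and 920.2, 985 and 981 and 2058 and 10067 in the same order, so that control 2 was far above control 1. PSAT1, of serine synthesis, read 659.7 and 1906 with FTI against 5514 and 14601 on the controls (-2.98, SE 0.69), and PYCR1, of proline synthesis, 454 and 715 against 1878 and 2709. CTH, of cysteine synthesis, read 127 and 129.7 against 363 and 409, its 2 probe sets differing by -1.47 and -0.92. The pseudokinase TRIB3 read 157 and 289 with FTI against 566 and 4523, and CBS, of the same pathway as CTH, 60.6 and 243 against 499.9 and 2032. Without prelamin A and FTI the count lower was 4 and ASNS (-2.29), CBS (-1.99) and TRIB3 (-2.42) lost their call. Without control 2 it was 8 and CBS lost its call (-1.87), without control 1 it was 29, and without progerin and FTI TRIB3 lost its call (-3.23).

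Several genes best known from neurons were higher on the FTI arrays. Of 30 measured neuronal genes 10 rose (33.3%, against 3.67% of all genes tested) and 2 fell, with a median of 0.49. The list was chosen with earlier results of these data known, so its share describes these genes and is no independent support. INA, the neurofilament protein alpha-internexin, read 545 and 507 on the FTI arrays, 303 and 270.0 on the untreated lamin arrays, 442 on the array labelled prelamin A and ZMPSTE24 and 12.8 and 5.20 on the controls (4.45, SE 0.26, adjusted p = 0.0666). STMN2, a neuronal regulator of microtubules, read 23296 and 16447 with FTI, 29845 and 17687 without it and 279.7 and 1668 on the controls. DCLK1, a microtubule-binding kinase, read 4735 and 476 against 32.7 and 13.2 (5.34, SE 1.10) and RAB27B, of vesicle secretion, 2068 and 822 against 152 and 10.5. PCP4, a calmodulin regulator, read 299.6 and 179 against 8.84 and 10.9 and BEX4 2393 and 1524 against 237 and 452. SNAP25, a fusion protein of synaptic vesicles, read 723 and 73.7 with FTI, 579 and 9.71 without it and 2.42 and 4.74 on the controls, and BEX1 3226 and 303, 3038 and 299.6 and 127 and 24.2. The 3 probe sets of SNAP25 ranged from 0.73 to 3.72. Both were brighter on the prelamin A and FTI array than on the progerin and FTI array, SNAP25 by 3.04 and BEX1 by 3.35 on the log2 scale. BEX1 lost its call without prelamin A and FTI (2.07) or control 2 (2.83). GAP43, of growth cones, and the synaptic adhesion protein NLGN1 were lower. GAP43 read 168 and 257 with FTI against 427 and 529.6 on the controls, and NLGN1 466 and 519 against 1384 and 736. The other probe set of each was under 2-fold (-0.56 and -0.99). GAP43 lost its call without prelamin A and FTI (-0.85) or control 2 (-0.98), and NLGN1 without control 1 (-0.57) or either FTI array (-0.94 and -1.09). Without progerin and FTI 16 genes of the list were higher.

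INA and NEFM also belong to 8 markers of the human embryonic kidney line, of which 4 reached a signal of 100, with a summed signal of 1058 and 729 on the FTI arrays, 881 and 578 on the untreated lamin arrays and 301 and 250.4 on the controls. INA made up 545 and 507 of the FTI sums. NEFM read 123 and 45.8 with FTI against 29.7 and 16.2 on the controls, and lost its call without prelamin A and FTI (0.69) or control 2 (1.02). Their part in the neuronal result was not tested. Among markers of other cell types TEK, the endothelial angiopoietin receptor, read 186 and 344 with FTI against 23.5 and 2.19 on the controls, and CD14, a monocyte receptor that fibroblasts also carry at low level, 311 and 198 against 87.2 and 55.3.

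Transcripts of the machinery that FTI acts on were not called. Of 13 measured prenyltransferase and CAAX-processing genes 0 were called in either direction, with a median of 0.07. FNTA, the subunit that farnesyltransferase shares with a related prenyltransferase, read 7099 and 6765 on the FTI arrays and 7454 and 6471 on the controls. FNTB, the subunit of farnesyltransferase alone, read 50.1 and 60.9 with FTI, 51.5 and 46.6 on the untreated lamin arrays and 147 and 104 on the controls, a log2 difference of -0.97 (SE 0.26) that missed the 2-fold threshold, and it passed without progerin and FTI (-1.08) or control 2 (-1.19). Of 33 genes of farnesylated proteins 0 were called, with a median of 0.07. LMNB1, a farnesylated B-type lamin, read 108 and 219 with FTI against 234 and 279 on the controls (-0.67, SE 0.37), and was called without progerin and FTI (-1.13), when 3 genes of the list were lower. Without control 2, 2 genes of this list were called higher, and without control 1 there was 1 in each direction. Of 20 lamin and inner nuclear envelope genes 0 were called, with a median of -0.23 and 2 lower without progerin and FTI or without control 1. Of 21 genes of the mevalonate and cholesterol pathway, which supplies the farnesyl group, 0 were called, with a median of 0.31. FDPS, farnesyl diphosphate synthase, read 3181 and 3151 on the FTI arrays, 3563 and 2700.2 on the untreated lamin arrays and 2325 and 2014 on the controls (0.55, SE 0.22). Without any 1 of the 4 arrays 1 gene of this pathway was called higher, and without control 2 also 1 lower.

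Setting the FTI arrays against the untreated arrays of their own lines asked which genes moved with the inhibitor itself. With line as a block 36 genes were higher (0.283%) and 92 lower (0.723%) with FTI, 717 (5.63%) had an unadjusted p under 0.05 from limma and 0 passed an adjusted p under 0.05, the smallest adjusted p being 0.841. The untreated lamin arrays share no sample with the controls, but both comparisons rest on the same FTI arrays. FOXQ1, a forkhead transcription factor, at chr6:1312098-1314758 in GRCh38.p14, read 1225 and 773 with FTI and 7676 and 1401 on the untreated prelamin A and progerin arrays (log2 difference from untreated -1.74, SE 0.47), with 969 on the array labelled prelamin A and ZMPSTE24 and 205 and 449 on the controls. The prelamin A lines differed far more than the progerin lines, and both FTI arrays stayed above both controls (1.63, SE 0.46). That difference from control lost its call without prelamin A and FTI (1.30) or control 1 (1.09).

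TNFAIP6, C3, CXCL1, WLS, GLDN and SCG2 were lower with FTI in both lines. TNFAIP6, an inflammation-induced hyaluronan-binding protein, read 307 and 341 with FTI and 2654 and 604 without it (-1.92, SE 0.58), but 259 and 1664 on the controls, which spanned the FTI values. The complement factor C3 read 56.5 and 174 with FTI, 329 and 323 without it and 71.0 and 91.3 on the controls, and CXCL1, named above, was also lower with FTI than without it (-1.06, SE 0.19). WLS, which carries WNT proteins to the cell surface, read 819 and 579 and 4829.9 and 807, GLDN, gliomedin, 206 and 120.5 and 1075 and 298, and the granin SCG2 75.8 and 88.7 and 501 and 144. In these 3 genes the untreated prelamin A array was the brightest of the 7. The controls read 477 and 407 for WLS, 132 and 178 for GLDN and 71.2 and 89.3 for SCG2. The FTI arrays lay near the controls for GLDN and SCG2 and above both for WLS. The 2 probe sets of GLDN differed from control by 0.04 and -1.27 with FTI. OGN was also lower with FTI than without it (-1.0, SE 0.25), further from control than the untreated arrays were. Among the 36 higher genes, RUNDC3A read 134 and 87.3 with FTI, 26.1 and 10.4 without it and 31.2 and 35.3 on the controls, and FHAD1 253 and 301, 62.8 and 82.1 and 211 and 280.1. LGR5 read 136 and 49.8 with FTI and 42.8 and 1.72 without it, and the collagen prolyl 3-hydroxylase P3H2 88.7 and 128 and 45.8 and 44.6, against 304 and 311 on the controls. INA differed by 0.84 (SE 0.16), and PDK4, a kinase that curbs glucose oxidation, had a difference of -0.94 (SE 0.19), both short of the 2-fold threshold.

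**Figure D4:**
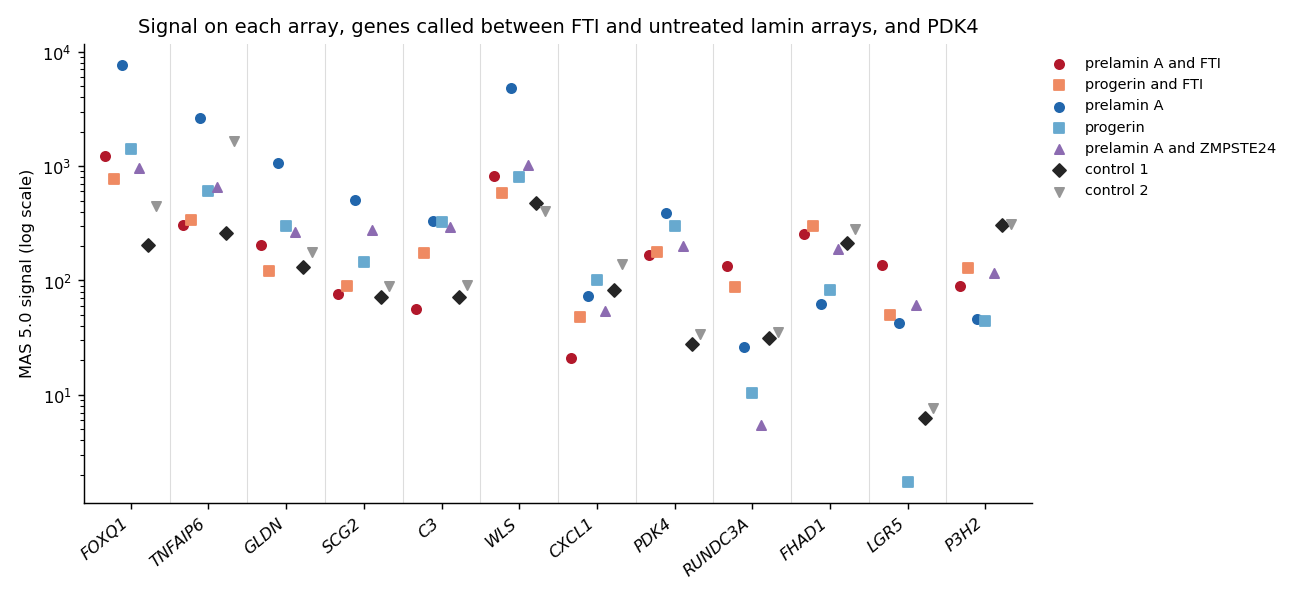
MAS 5.0 signal (log axis) of 12 genes on each of the 7 arrays, 1 point per array and no averaging, with FTI arrays in red and orange, untreated lamin arrays in blue, the array labelled prelamin A and ZMPSTE24 in purple and controls in black and grey. FOXQ1 reads 7676 on the untreated prelamin A array and 1225 on the prelamin A and FTI array, and RUNDC3A and FHAD1 are higher on both FTI arrays than on both untreated arrays.

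The largest differences between the FTI-treated lines lay in ID1, DLX2 and ID3. The prelamin A and FTI array was higher than the progerin and FTI array in 348 genes (2.73%) and lower in 266 (2.09%), with the spread taken from the controls because each line has 1 array. These counts assume that a lone array varies as the controls do, have 1 residual degree of freedom, and compare the 2 arrays, with no replicate check of the lines. Limma called 0 genes at an adjusted p under 0.05 (smallest 0.832), and 617 (4.85%) had an unadjusted p under 0.05. ID1, an inhibitor of basic helix-loop-helix factors and a BMP target, read 11807 on the prelamin A and FTI array and 182 on the progerin and FTI array, with 14766 and 171 on their untreated arrays and 430.2 and 888 on the controls (log2 difference between the FTI arrays 5.90, SE 0.61). ID3, of the same family, read 8607 and 269 on the FTI arrays, 12826 and 219 on the untreated arrays and 1186 and 2294 on the controls. For ID1 and ID3 the difference between lines stood on the untreated arrays too. It did not hold on the array labelled prelamin A and ZMPSTE24, which read 168 for ID1 and 348 for ID3, below both controls. DLX2, a homeobox factor, read 652 and 2.98 with FTI and 60.8 and 51.2 on the controls, and EDN1, endothelin, 3606 and 213 with FTI and 226 and 229 on the controls. ACTC1, the cardiac actin, read 17384 and 1526 with FTI, 11224 and 1224 without it and 1638 and 1027 on the controls. The array labelled prelamin A and ZMPSTE24 read 82.9 for DLX2, 441 for EDN1 and 1661 for ACTC1, far below the prelamin A and FTI array. In the other direction EFEMP1 (-3.33) and the WNT inhibitor DKK2 (-2.68) were lower on the prelamin A and FTI array, DKK2 with 372 and 2466 on the FTI arrays and 478 and 2141 on the untreated arrays. In 6 genes (0.0471%) the FTI arrays lay over 2-fold on opposite sides of both controls: DLX2, ID1, ID3, SCG5 and SMIM43 were above control with prelamin A and FTI, and PPP1R9A was above control with progerin and FTI. SCG5, a chaperone of prohormone convertase, read 3445 and 349 on the FTI arrays and 719.6 and 1319 on the controls.

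**Figure D5:**
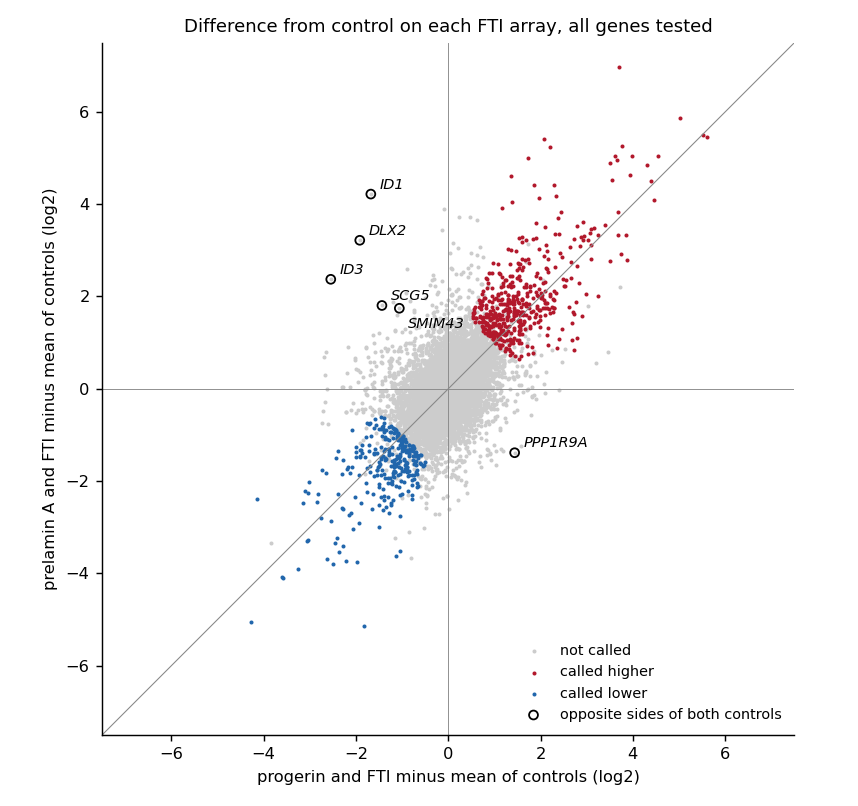
Each point is 1 gene, with its log2 difference from the mean of the controls on the progerin and FTI array (horizontal) and on the prelamin A and FTI array (vertical), in red or blue where called higher or lower with FTI than control. Both axes share the same controls, which alone spreads points along the diagonal, and the 6 ringed genes lie over 2-fold on opposite sides of both controls.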

How the data were processed

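RNA from 7 fibroblast samples was hybridised to Affymetrix Human Genome U133 Plus 2.0 arrays, 1 array per sample. The authors deposited MAS 5.0 signals, a linear intensity per probe set after background correction and scaling of each array. Their methods state a scaling target, and in the deposited table the trimmed mean, leaving out 2% at each end, was 500 on every array. No detection call entered the analysis. The study used an S-score, which works on probe-level data and was not repeated. Scan batches are not given in the sources used here.

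Of 54675 probe sets, 62 were array controls, 41091 named 1 gene, 1801 several and 11721 none, and 41037 were matched by gene ID to RefSeq (GRCh38.p14). For each gene the probe set with the greatest mean signal was kept, and genes with a signal of at least 100 on 1 or more of the 7 arrays were tested (12726 genes). The log2 of signal plus 16 was fitted with limma 3.58.1 in R 4.3.3, with 2 residual and 2.85 prior degrees of freedom for FTI against control and Benjamini-Hochberg adjustment over all genes. All p-values are two-sided. Fold changes are on this scale, which understates the change of dim genes. A gene was called at a fold over 2 and an unadjusted p under 0.05. The fit was first tested on simulated data.

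Named genes were the targeted genes, the genes of largest change or smallest p in each comparison, up to 6 called members of each list described and the members of the prenylation lists. BEX4, C3, COL4A2, COL5A1, CTH, DDX60, EPSTI1, FHAD1, GAP43, GLDN, NLGN1, PCP4, PYCR1, ROR1, RUNDC3A, SCG2, SCG5, SMIM43, TIGAR, TNFAIP6, TRIM22, WLS, WNT2B and ZMAT3 were named after their values were seen. The samples and gene lists were chosen with earlier results of these data known. Alternatives changed the normalization, pseudocount, filter, variance model, design and probe set rule, and left out each array in turn. Promoter sequences came from RefSeq, and sex-linked marker genes are not reported here. No protein sequence was used here, so the CAAX ends of the farnesylated proteins were not read.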

Additional observations from a re-analysis of the deposited data

Results flagged for a closer look

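The values named here differed between the FTI arrays of the prelamin A and progerin lines in limma with the spread taken from the controls. Each line has 1 array and no replicate check, and 0 of the genes passed an adjusted p under 0.05. The log2 difference of prelamin A and FTI from progerin and FTI was 5.90 for ID1, 5.14 for DLX2, 4.92 for ID3, 3.99 for EDN1, 3.58 for the long noncoding RNA SPRY4-IT1, 3.50 for ACTC1, 3.24 for SCG5 and 2.81 for SMIM43. It was -3.33 for EFEMP1, -2.85 for the long noncoding RNA TOX-DT, -2.82 for PPP1R9A, -2.82 for SMKR1, -2.69 for the secretory pathway pseudokinase FAM20A and -2.68 for DKK2. SMIM43 read 949.5 and 122 on the prelamin A and FTI and progerin and FTI arrays, 714 and 261 on their untreated arrays and 263 and 282 on the controls, and PPP1R9A, a neuronal actin-binding protein, 3.71 and 124, 38.5 and 113 and 41.2 and 30.4 in the same order. SPRY4-IT1 read 319 and 11.9 with FTI and 335 and 14.7 without it, so that its difference between lines also stood without FTI. It read 162 on the array labelled prelamin A and ZMPSTE24. FAM20A read 32.7 and 299 with FTI and 139 and 309 without it.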

How the results depend on the processing

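Quantile normalization gave 459 genes higher and 293 lower with FTI than control, against 467 and 296 in the analysis reported. Without the filter on dim probe sets 609 genes were higher and 509 lower among 19775 tested, so that 5.65% were called in all, a smaller share than with the filter. Leaving out each array in turn gave 398 to 677 genes higher and 320 to 556 lower, the highest of both without progerin and FTI, and of the 467 and 296 calls 305 and 167 were kept without prelamin A and FTI, 401 and 245 without progerin and FTI, 387 and 222 without control 1 and 330 and 188 without control 2. At an adjusted p under 0.05 limma called 0 genes in the analysis reported and 0 when any 1 array was left out, but 12 with a pseudocount of 64, 14 where the mean signal had to reach 100, 23 with an intensity trend and 16 with 4 states on the 7 arrays.

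The 128 genes called between FTI and untreated arrays became 67 without the line block, 36 with a pseudocount of 64 and 61 where the mean signal had to reach 100. Without the line block TNFAIP6, WLS, GLDN, SCG2, LGR5, OGN and FOXQ1 lost this call. The FOXQ1 difference from control lost its call with 4 states. LMNA lay between -0.22 and 0.42 when each array was left out, below 0 without progerin and FTI or without control 1 (-0.20). FNTA, at -0.00 in the analysis reported, was 0.013 under median centring and between -0.10 and 0.10 when each array was left out, above 0 without progerin and FTI (0.03) or control 1. Of the single-gene log2 differences recomputed, 1487 kept their direction and their side of the threshold, 97 lost a call, 4 gained one and 5 changed sign. This tally leaves out the counts of called genes, over all genes and per list, which moved more in some lists, as given above. The cause of these changes was not tested.

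Leaving out an array from the FTI and untreated pairs or from the comparison of the lines left no residual degrees of freedom and could not be fitted. The comparison with the untreated arrays was paired by line. For FTI against control, no paired analysis was possible because the labels number only the controls, and the FTI arrays carry no replicate number.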

Other observations

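Over all genes tested 3.67% were higher and 2.33% lower on the FTI arrays than on the controls. Each list of this paragraph had a larger share in at least 1 direction, on small counts. The lists share genes, so these shares are not separate from those above. CD36 among the adipogenic genes was also counted in an earlier list. So were COL11A1, OMD, OGN and COMP among the bone and cartilage genes, and ASNS and TRIB3 among the unfolded protein response genes. The homeobox and forkhead calls included LHX9, IRX3 and FOXQ1, named above. Of 21 measured adipogenic and fatty acid genes 4 rose (19%) and 0 fell, among them PDK4, with 166 and 176 on the FTI arrays against 27.7 and 34.1 on the controls. Without control 1, 2 genes of that list were lower, and 1 was without prelamin A and FTI or without progerin and FTI. Of 20 amine, alcohol and aldehyde enzymes 4 rose (20%) and 0 fell (1 without progerin and FTI), among them AOX1, aldehyde oxidase, with 2999 and 2985 against 938 and 549, and EPHX2, soluble epoxide hydrolase, with 159 and 193 against 11.1 and 47.1. Guidance molecules had 4 of 33 higher (12.1%) and 0 lower, with 7 higher and 3 lower without control 1, 2 lower without progerin and FTI and 1 lower without prelamin A and FTI. Bone and cartilage genes had 2 of 20 higher (10%) and 4 lower (20%), with 4 higher without progerin and FTI. Homeobox and forkhead factors other than HOX genes had 3 of 32 in each direction (9.38%), among them FOXO1, with 315 and 216 on the FTI arrays against 112 and 83.7 on the controls, and 5 were lower without progerin and FTI and 5 higher without control 2. Unfolded protein response genes had 0 of 28 higher and 4 lower (14.3%), with 0 lower without prelamin A and FTI, 2 without control 2, and 8 lower and 1 higher without control 1.

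The remaining lists had shares close to those of all genes and gave no result about their members. Immediate early genes had 1 of 29 in each direction (3.45%), with 5 higher and 3 lower without progerin and FTI, 4 lower without control 2, 2 lower without control 1 and 2 higher without prelamin A and FTI. Of 37 genes of oxidative stress defence and selenoproteins 2 were higher (5.41%) and 1 lower (2.7%), with 1 higher without prelamin A and FTI or without control 1. Of 19 HOX genes 1 was higher (5.26%), with 2 higher and 1 lower without progerin and FTI, and of 24 contractile genes 1 was higher (4.17%), with 0 without control 2 and 2 without control 1. Of 33 hypoxia and glycolysis genes 1 was lower (3.03%), with 4 lower without progerin and FTI and 2 without prelamin A and FTI.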
